A study of Mus musculus with 4 samples.

Results

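The replication-dependent histone genes of mouse erythroblasts were compared between Parp-2-/- mice and wild type (WT) mice on Affymetrix whole-transcript arrays. Members were the probe sets whose annotated symbols all begin with Hist1h to Hist4h, or with the current names H2ac, H2bc, H3c and H4c or H1f1 to H1f5. This rule gave 43 of the 23410 annotated probe sets, in a table of 35511 probe sets in all. Of the 43, 26 carry 1 symbol and 17 carry several, because histone genes are near copies of each other and share probes; the 43 probe sets name 43 genes, 26 of which have a probe set of their own. A probe set is a group of probes summarised into a single value, and all values are on the log2 scale. There were 2 arrays per genotype, each from 100 ng of total RNA of bone marrow cells sorted for Ter119 and CD71, a red cell surface protein and the transferrin receptor. Both genotypes were on the C57BL/6 background with no treatment named. The age of the mice, the way the Parp-2 allele was made and whether a sample pooled animals are not given in the sources used here.

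Core histones H2A, H2B, H3 and H4 form the nucleosome around which DNA is wrapped, and linker histone H1 binds where DNA enters and leaves it. Most histone protein is made during S phase from clustered genes whose mRNAs end in a conserved stem-loop and carry no poly(A) tail. The stem-loop binding protein SLBP governs their processing, translation and decay, and the mRNAs are degraded quickly when DNA synthesis ends or is blocked. Erythroblasts divide rapidly while they mature, and so pass through S phase repeatedly. PARP2 is a poly(ADP-ribose) polymerase that responds to DNA breaks. Whole-transcript labelling starts from random primers, so an mRNA without a poly(A) tail can be measured.

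On the arrays themselves, Parp-2-/- replicate 2 stood apart with an interquartile range of 1.98, against 2.62 to 2.94 on the other 3, and a 95th percentile of 9.58 against 9.95 to 10.07. Values on that array spanned a narrower range. Differences of histone probe sets and of related genes below that changed sign without it are given both ways. Marker differences are given with all arrays only. Parp2 itself (probe set 10414497) read 8.24 and 7.65 in WT and 7.11 and 6.70 in Parp-2-/-, lower on both Parp-2-/- arrays by a mean difference of -1.04 ± 0.40 (SE; limma adjusted p = 0.9999). Of 6 erythroid markers 5 were measured, all at 9.32 or more on every array, so defining genes of the labelled cell type were present. The summed erythroid level (log2 of summed linear values) was 12.73 and 14.07 in WT and 13.33 and 13.96 in Parp-2-/-. No marker of any list passed the test (lowest limma adjusted p = 0.9999), but most markers of other white blood cells were lower in Parp-2-/-. All 8 neutrophil markers were lower in Parp-2-/-, with summed levels of 13.81 to 14.25 in WT and 12.48 to 13.03 in Parp-2-/-. Of 6 measured B lineage markers 5 were lower, with summed levels of 10.01 to 10.46 against 8.89 to 9.14, and all 4 measured monocyte and macrophage markers were lower, at 11.996 to 12.29 against 10.96 to 11.40. Of 6 T and NK markers 5 were lower (8.89 to 9.89 against 8.19 to 8.48), as were 4 of 5 mast cell, basophil and eosinophil markers (8.68 to 9.75 against 7.73 to 7.81) and 1 of 3 megakaryocyte markers (8.50 to 8.65 against 7.89 to 8.72, overlapping). Pax5 (+0.44), Cd8a (+0.30), Fcer1a (+0.0088), Pf4 (+1.14) and Itga2b (+0.20) were the markers outside the erythroid list with a difference above 0. No marker is listed at 0. In a bulk sample fewer cells of a type and less RNA per cell cannot be told apart, and the part of these cells in the histone values was not tested.

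The 5 histone classes differ in the short boxes that lie in front of their genes, and promoters of 7 members with probe sets of their own are shown for that reason. Promoter sequences came from RefSeq (build GRCm38.p6), which held 39 promoter sequences for 38 of the 43 member genes. Each line gives the 100 bases before the annotated start, 5′ to 3′ on the gene's strand. Capitals mark, on either strand, the TATA box core TATAAA, the CCAAT box CCAAT, the octamer ATGCAAAT and the H1 box AAACACA; none of these motifs overlaps another in the sequences shown.
H1f1, chr13:23763568-23763667, plus strand: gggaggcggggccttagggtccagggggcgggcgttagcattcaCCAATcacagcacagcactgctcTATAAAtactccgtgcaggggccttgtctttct
H2ac4, chr13:23750988-23751087, plus strand: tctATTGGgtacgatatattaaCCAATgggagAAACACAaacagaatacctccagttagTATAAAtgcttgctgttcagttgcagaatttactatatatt
H2ac8, chr13:23571221-23571320, minus strand: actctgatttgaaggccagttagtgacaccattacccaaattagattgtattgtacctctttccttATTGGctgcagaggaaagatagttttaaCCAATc
H2bc8, chr13:23571300-23571399, plus strand: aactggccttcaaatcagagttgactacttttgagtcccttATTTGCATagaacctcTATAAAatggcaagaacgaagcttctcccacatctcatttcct
H2bc14, chr13:21721944-21722043, plus strand: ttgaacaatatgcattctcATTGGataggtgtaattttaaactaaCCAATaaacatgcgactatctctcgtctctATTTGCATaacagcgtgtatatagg
H3c4, chr13:23575663-23575762, plus strand: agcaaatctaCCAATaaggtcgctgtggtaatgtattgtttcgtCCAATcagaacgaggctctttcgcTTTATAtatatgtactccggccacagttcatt
H4c4, chr13:23581468-23581567, plus strand: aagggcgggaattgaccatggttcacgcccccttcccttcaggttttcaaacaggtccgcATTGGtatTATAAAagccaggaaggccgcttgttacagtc

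H2ac8 and H2bc8 start on opposite strands and share the stretch between them, an arrangement common among H2A and H2B genes. Over the 250 bases before the start, on either strand, the octamer was found in 6 of 9 H2B and 3 of 4 H2A promoters and in none of the 5 H1, 10 H3 and 11 H4 promoters, while 1.6% of all 32851 promoters held it. The CCAAT box was in all 5 H1, 4 H2A and 9 H2B promoters, in 8 of 10 for H3 and in 3 of 11 for H4, against 33.8% of all promoters. The TATA box core was in 21 of the 39 member promoters (12.4% of all promoters), and the H1 box in 4 of 5 H1, 2 of 4 H2A, 2 of 9 H2B and no H3 or H4 promoters (6.25% of all promoters). These matches describe letters in a window and not sites of binding. Windows of paired H2A and H2B genes can overlap, so the same match can count for both, and H2bc6 enters the H2B promoters more than once.

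No replication-dependent histone probe set differed between the genotypes past the test. Limma with Benjamini-Hochberg adjustment over all 23410 annotated probe sets called 0 of the 43 at an adjusted p under 0.05, and 0 had an unadjusted p under 0.05. Over all annotated probe sets 0% were called, and 2.08% had an unadjusted p under 0.05 (0.342% higher and 1.73% lower in Parp-2-/-), so a count of 0 among 43 is near the background. The lowest adjusted p among the members was 0.9999. The median difference (Parp-2-/- minus WT) of the 43 was -0.12, with a range from -1.61 to +0.17, beside a median of +0.06 over all annotated probe sets. In 40 of the 43 the difference was smaller than its own standard error.

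**Figure D1:**
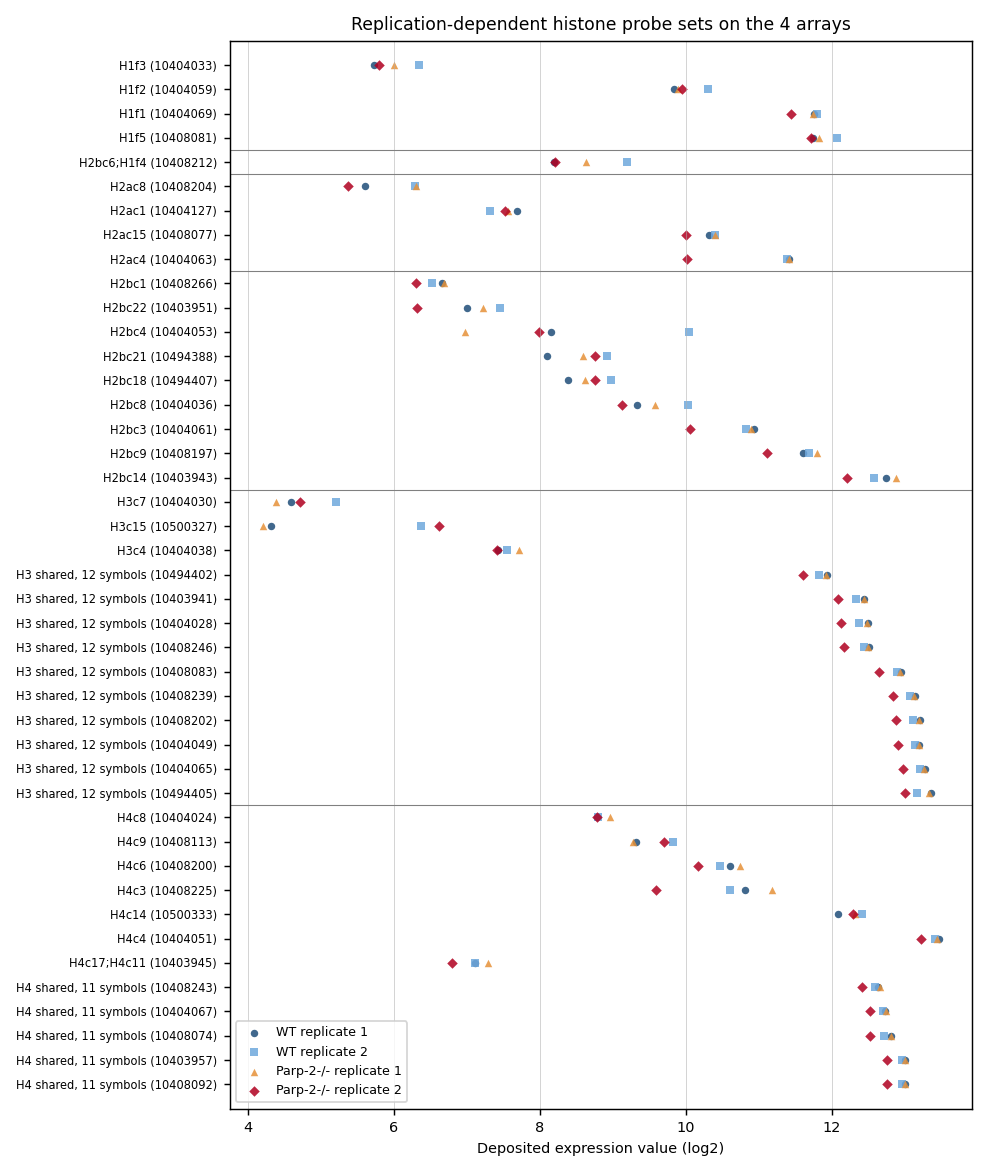
Deposited log2 expression value (horizontal axis) of each of the 43 histone probe sets (rows, grouped by class) on the 4 arrays, 1 point per array. The 10 H3 and 5 H4 probe sets listed to 12 and 11 genes sit within 0.37 log2 units between replicates of a genotype, and H2bc4 and H3c15 spread the most.

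Small differences leaned in a single direction. Of the 43 probe sets 36 (83.7%) were lower in Parp-2-/-, where 43.6% of all annotated probe sets were lower. Groups that did not overlap were found for 2 members, both lower (4.65%), against 9.42% of all probe sets in that direction, and for 0 members higher, against 15.6%; in either direction 25% of all probe sets had groups without overlap. The lean followed Parp-2-/- replicate 2. That array was the lowest of the 4 for 32 of the 43 probe sets (74.4%), against 27.5% of all annotated probe sets. Parp-2-/- replicate 1 by contrast lay above the WT mean for 30 of the 43, against 11886 of all 23410 annotated probe sets. Shared probe sets repeat the same genes in these counts. Of the 26 with 1 symbol, 19 (73.1%) were lower in Parp-2-/-. Among those 26, Parp-2-/- replicate 2 was the lowest array for 16 (61.5%), and replicate 1 lay above the WT mean for 14. Without replicate 2 the median of the 43 differences was +0.03 in place of -0.12, and without Parp-2-/- replicate 1 it was -0.27. After the arrays were quantile normalised again, the median was -0.03 and 27 of 43 were lower.

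The lean was present in members above and below a mean of 12. Among 17 histone probe sets with a mean of 12 or more, 16 had Parp-2-/- replicate 2 as the lowest array, and their median difference was -0.12. Most of these 17 are shared H3 or H4 probe sets that list the same genes, so they are not 17 separate measurements. Among the 176 other annotated probe sets at or above 12, the median difference was also -0.12, replicate 2 was lowest in 85.8% and 90.9% were lower in Parp-2-/-. With all arrays, histone and other probe sets of this brightness thus had equal medians to 2 decimals. Without Parp-2-/- replicate 2 the medians were +0.03 for the 17 and +0.11 for the 176. Parp-2-/- replicate 1 lay above the WT mean in 16 of the 17 and in 143 of the 176. No test of a difference was run. Of the 26 members with a mean under 12, 20 (76.9%) were lower in Parp-2-/- and 16 (61.5%) had replicate 2 as the lowest array. Their median was -0.13, close to that of the bright members, and +0.01 without Parp-2-/- replicate 2. Spread was larger, with a median gap of 0.35 between the WT replicates against 0.07 for the 17 bright ones. These 26 were not compared with other probe sets of their level. The level of 12 was chosen after the values were seen.

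**Figure D2:**
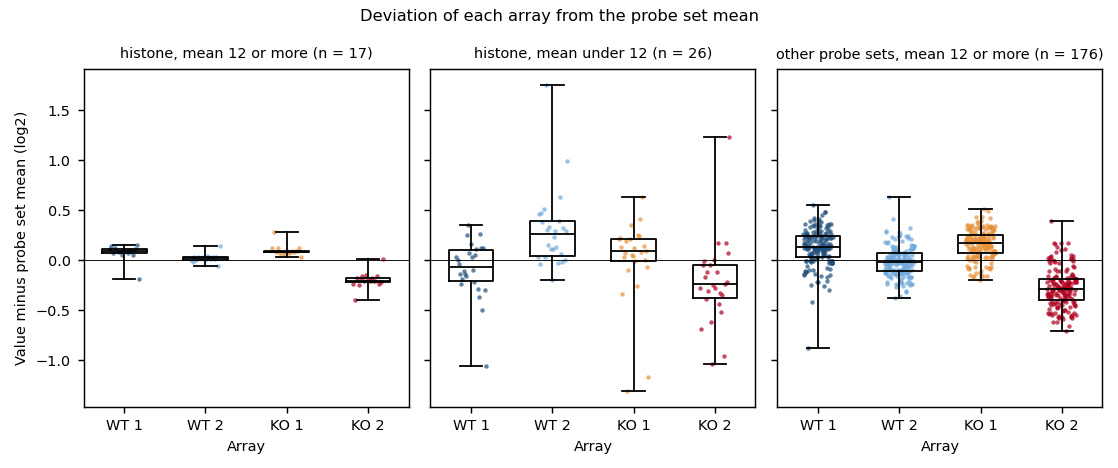
Each point is the value of a probe set on an array minus that probe set's mean over the 4 arrays (log2), for histone probe sets with a mean of 12 or more (17), under 12 (26) and other probe sets with a mean of 12 or more (176); boxes show quartiles and median, whiskers the full range. Parp-2-/- replicate 2 (KO 2) lies lowest in the bright groups, and the other 3 arrays lie close together among the bright histone probe sets.

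**Figure D3:**
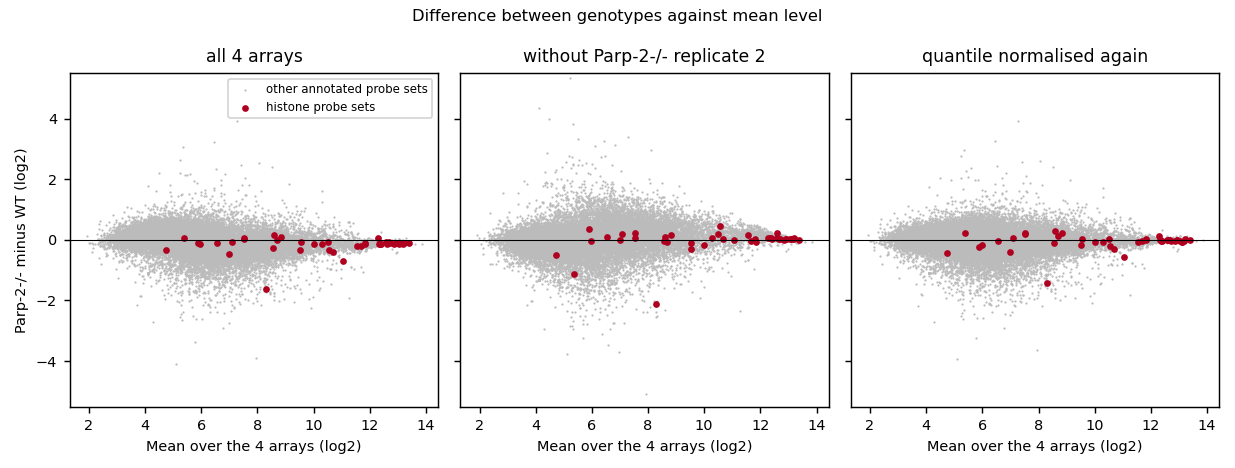
Difference between genotypes (log2, vertical axis) against the mean level (log2, horizontal axis) for histone probe sets (red) and other annotated probe sets (grey), with all 4 arrays, without Parp-2-/- replicate 2 and after a further quantile normalisation. Histone medians in the 3 panels are -0.12, +0.03 and -0.03, and the lowest red point in each panel is H2bc4.

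The linker histones were measured by 4 probe sets of their own, and their median difference was -0.14, or -0.06 without Parp-2-/- replicate 2. H1f1 (probe set 10404069) read 11.76 and 11.80 in WT and 11.74 and 11.44 in Parp-2-/-. Its groups did not overlap, yet the gap between the nearest arrays of the genotypes was smaller than the gap between the Parp-2-/- arrays, and the difference was -0.19 ± 0.36 (SE, 2 arrays per group; limma adjusted p = 0.9999). H1f2, the H1.2 linker histone, read 9.85 and 10.30 in WT and 9.90 and 9.96 in Parp-2-/-, a difference of -0.14 ± 0.37 (SE). WT replicate 2 was the highest array for H1f2, H1f3 and H1f5, by 0.33 to 0.62 over WT replicate 1. H1f5 read 11.74 and 12.07 in WT and 11.83 and 11.72 in Parp-2-/-, and H1f3 read 5.73 and 6.35 against 6.00 and 5.80. A further probe set, shared by H1f4 and H2bc6, read 8.19 and 9.19 in WT and 8.64 and 8.21 in Parp-2-/-. Both of its Parp-2-/- values lay within the span of the WT values.

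Only 4 H2A probe sets met the rule, with a median difference of -0.13 that was +0.05 without Parp-2-/- replicate 2 and -0.46 without replicate 1. H2ac4 had the largest difference of the class and rested on a single array: it read 11.41 and 11.39 in WT, 11.41 in Parp-2-/- replicate 1 and 10.01 in replicate 2. Its difference of -0.69 ± 0.52 (SE; limma adjusted p = 0.9999) became +0.01 without replicate 2. H2ac15 read 10.32 and 10.40 in WT and 10.41 and 10.01 in Parp-2-/-, and its difference of -0.15 became +0.05 without replicate 2. H2ac8 read 5.61 and 6.29 against 6.31 and 5.38. H2bc8, which shares its start region, read 9.33 and 10.03 against 9.59 and 9.13. In both genes of this pair WT replicate 2 exceeded WT replicate 1 and Parp-2-/- replicate 2 was the lowest array. H2ac1, an H2A gene used in testis, read 7.69 and 7.32 in WT and 7.56 and 7.52 in Parp-2-/-, a difference of +0.04.

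The 9 H2B probe sets varied most among themselves, with differences from -1.61 to +0.17 and a median of -0.19 (+0.01 without Parp-2-/- replicate 2). H2bc4 (probe set 10404053) had the largest difference of all 43 members. It read 8.15 and 10.05 in WT and 6.98 and 7.99 in Parp-2-/-. Both Parp-2-/- arrays lay below both WT arrays, but WT replicate 1 and Parp-2-/- replicate 2 were close, and the 2 WT arrays differed by 1.90. The difference of -1.61 ± 0.68 (SE), a 3.06-fold lower level, had an unadjusted limma p of 0.0506 and an adjusted p = 0.9999, with a 95% confidence interval from -3.23 to +0.0053. It was -0.67 without WT replicate 2 and -2.56 without WT replicate 1, so its size depended on which WT array was kept. Most neutrophil and B lineage markers and all measured monocyte and macrophage markers were lower in the same 2 arrays. H2bc4 was higher in replicate 2 than in replicate 1 of both genotypes. WT replicate 2 exceeded WT replicate 1 in 0 of 8 neutrophil, 4 of 6 B lineage and 2 of 4 monocyte and macrophage markers. Parp-2-/- replicate 2 lay below replicate 1 in 7, 3 and 1 of them. The part of these cells in the H2bc4 value was not tested.

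Other H2B genes had smaller differences. H2bc22 read 6.999 and 7.46 in WT and 7.22 and 6.31 in Parp-2-/-, a difference of -0.46 ± 0.45 (SE) that was -0.0058 without Parp-2-/- replicate 2. H2bc3 read 10.93 and 10.83 against 10.89 and 10.06, so 3 of the arrays were alike and replicate 2 was low. The same held for H2bc14, which read 12.75 and 12.58 in WT and 12.88 and 12.20 in Parp-2-/-. H2bc9 read 11.60 and 11.69 against 11.80 and 11.11. H2bc21 and H2bc18, from the smaller Hist2 cluster, were the members of the class with a difference above 0: H2bc21 read 8.10 and 8.92 in WT and 8.59 and 8.76 in Parp-2-/- (+0.17 ± 0.42, SE), and H2bc18 read 8.38 and 8.97 against 8.62 and 8.75 (+0.01 ± 0.39, SE; -0.06 without Parp-2-/- replicate 2). For both genes the Parp-2-/- values lay between the WT values. H2bc1, an H2B gene used in testis, read 6.67 and 6.53 in WT and 6.68 and 6.31 in Parp-2-/-, a difference of -0.10 that was +0.09 without replicate 2.

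Histone H3 was measured mainly by 10 probe sets that each list 12 H3 genes, and these gave nearly the same answer 10 times over and share their listed genes. Their differences ran from -0.14 to -0.09, Parp-2-/- replicate 1 exceeded the WT mean in all 10 and Parp-2-/- replicate 2 was the lowest array in all 10. Probe set 10408246, listed to H3c1, H3c13, H3c11, H3c10, H3c6, H3c2, H3c4, H3c3, H3c7, H3c8, H3c15 and H3c14, had the largest of these differences and read 12.51 and 12.44 in WT and 12.49 and 12.17 in Parp-2-/-, a difference of -0.14 ± 0.36 (SE) that was +0.02 without replicate 2. Of the 3 probe sets for a single H3 gene, H3c4 read 7.43 and 7.56 against 7.72 and 7.42, a difference of +0.08. H3c7 read 4.59 and 5.20 against 4.39 and 4.72; its mean was the only one of the 43 under 5.19, the 95th percentile of 1133 olfactory receptor probe sets taken as a reference for dim signal. H3c15 read 4.32 and 6.37 in WT and 4.22 and 6.62 in Parp-2-/-. Its replicates 2 exceeded its replicates 1 by 2.05 in WT and 2.40 in Parp-2-/-, while the genotypes differed by +0.07 ± 0.93 (SE), or -1.13 without Parp-2-/- replicate 2.

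Histone H4 had 12 probe sets with a median difference of -0.08, which was +0.05 without Parp-2-/- replicate 2 and +0.01 after repeated quantile normalisation. Of these, 5 list 11 H4 genes each and differed by -0.10 to -0.07, or by +0.02 to +0.05 without Parp-2-/- replicate 2. Among the 5, 2 (10403957 and 10408092) hold identical values on every array and are not separate measurements. For the 15 shared H3 and H4 probe sets together, the unadjusted 95% confidence intervals of the differences reached from -1.003 to +0.78 at their widest. These intervals are not a limit of detection with 2 arrays per group. Over all annotated probe sets, differences as large as -4.08 and +3.91 did not pass the test. H4c4 read 13.46 and 13.41 in WT and 13.44 and 13.23 in Parp-2-/-, a difference of -0.11 ± 0.35 (SE). H4c3 read 10.81 and 10.61 in WT, 11.18 in Parp-2-/- replicate 1 and 9.60 in replicate 2. These Parp-2-/- arrays were the highest and the lowest of the 4, and the difference of -0.32 ± 0.56 (SE) became +0.47 without replicate 2. H4c8 read 8.79 and 8.79 in WT and 8.96 and 8.78 in Parp-2-/- (+0.08), and H4c14 read 12.09 and 12.42 against 12.31 and 12.30 (+0.05). H4c6 (10.61 and 10.47 against 10.75 and 10.17) and H4c9 (9.32 and 9.83 against 9.28 and 9.71) each differed by -0.08. Without Parp-2-/- replicate 2 the differences of H4c6 and H4c9 were +0.20 and -0.30. A probe set for H4c17 and H4c11 read 7.12 and 7.12 in WT and 7.30 and 6.81 in Parp-2-/-.

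By gene cluster, the 22 single-gene probe sets of Hist1 had a median difference of -0.14 with 19 lower, and the 4 of Hist2 had a median of +0.06 with 0 lower. Without Parp-2-/- replicate 2 the medians were +0.01 and +0.0005, with 12 of 22 and 2 of 4 above the WT mean. Whether the clusters differed was not tested, and in Hist2 all 4 probe sets were higher in WT replicate 2 than in WT replicate 1. The histone genes known to give polyadenylated mRNA in differentiated cells as well, H1f2, H2bc4 and H2bc21, had that order too: WT replicate 2 exceeded WT replicate 1 by 0.45, 1.90 and 0.82. Their differences between genotypes were -0.14, -1.61 and +0.17, and the latter became -0.24 without WT replicate 1.

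The replacement histone variants, whose synthesis is not confined to S phase and which lie outside the rule, were measured for 9 of 11 listed genes. None passed the test (lowest limma adjusted p = 0.9999). Of the 9, 5 were higher and 4 lower, with a median of +0.06. That median became -0.02 with arrays centred on their medians and -0.06 without Parp-2-/- replicate 2. Macroh2a1, a variant with a large extra domain linked to silent chromatin, read 8.04 and 7.35 in WT and 7.05 and 6.31 in Parp-2-/-. Its groups did not overlap, and the difference was -1.02 ± 0.45 (SE; limma, unadjusted p = 0.0579, adjusted p = 0.9999). H2ax, the variant phosphorylated at DNA breaks, read 10.66 and 11.59 against 10.07 and 11.11, a difference of -0.53 ± 0.52 (SE) with overlapping groups. H2aj (+0.34) and H1f10 (+0.46) were higher on both Parp-2-/- arrays. H2az1 read 12.16 and 12.09 in WT and 12.07 and 11.84 in Parp-2-/-, a difference of -0.17 ± 0.35 (SE) without overlap. H2az2 (+0.06), Cenpa (-0.11), the centromeric H3, and Macroh2a2 (+0.25), whose mean lay below the dim reference, had overlapping groups. H3f3a read 6.08 and 6.28 in WT and 5.99 and 7.54 in Parp-2-/-, and its difference of +0.59 became -0.19 without Parp-2-/- replicate 2.

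Genes that make and process histone mRNA were measured for 20 of 21 listed, of which 0 passed the test, 6 were higher and 14 lower, with a median of -0.05 (+0.19 without Parp-2-/- replicate 2 and +0.04 after repeated quantile normalisation). Slbp read 9.94 and 10.23 in WT and 10.24 and 9.92 in Parp-2-/-, so the group means were equal to 2 decimals and each genotype held a high and a low array; without Parp-2-/- replicate 2 the difference was +0.16. Npat, the coactivator of histone gene transcription, read 7.36 and 7.48 in WT and 8.33 and 6.48 in Parp-2-/-. The Parp-2-/- arrays lay on either side of the WT arrays, and the difference of -0.02 became +0.91 without replicate 2. Casp8ap2, the FLASH protein of histone 3′ end processing, read 7.70 and 7.70 against 7.90 and 7.27, a difference of -0.12 that was +0.20 without Parp-2-/- replicate 2. Mif4gd, a partner of SLBP in translation, read 6.66 and 6.43 in WT and 7.36 and 7.19 in Parp-2-/-. It had the lowest p of the list, with non-overlapping groups and a difference of +0.73 ± 0.36 (SE; limma, unadjusted p = 0.0826, adjusted p = 0.9999). Lsm11, a subunit of the U7 particle that directs 3′ cleavage, differed by -0.44 ± 0.38 (SE) without overlap. Cpsf2, a subunit of the cleavage machinery, read 9.61 and 8.96 against 9.67 and 7.34, and its difference of -0.78 became +0.39 without Parp-2-/- replicate 2.

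Histone chaperones carry new histones to DNA, and 17 of 18 listed were measured. None passed the test, 14 were lower, and the median was -0.08, or +0.13 without Parp-2-/- replicate 2 and +0.04 after repeated quantile normalisation. Asf1a (-0.44), Asf1b (-0.36) and Chaf1b (-0.38) had the lowest p; without Parp-2-/- replicate 2 they were at -0.0434, -0.14 and +0.16. Asf1b read 10.17 and 10.02 in WT and 9.95 and 9.52 in Parp-2-/-, without overlap. S phase genes, which are expressed when histone mRNA is made, were measured for 19 of 20 listed. None passed, 9 were higher and 10 lower, and the median was -0.03, or +0.23 without Parp-2-/- replicate 2 and +0.08 after repeated quantile normalisation. The cyclin E genes Ccne1 (+0.39 ± 0.39, SE) and Ccne2 (-0.23 ± 0.37, SE) had differences of opposite sign. Mcm3, a subunit of the replicative helicase, differed by -0.34 ± 0.49 (SE), or +0.17 without Parp-2-/- replicate 2. Across histone genes, their processing factors, their chaperones and S phase genes, medians thus lay between -0.12 and -0.03 with all arrays, and above 0 in each list without Parp-2-/- replicate 2. The replacement variants went the other way, at +0.06 with all arrays and -0.06 without that array.

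**Figure D4:**
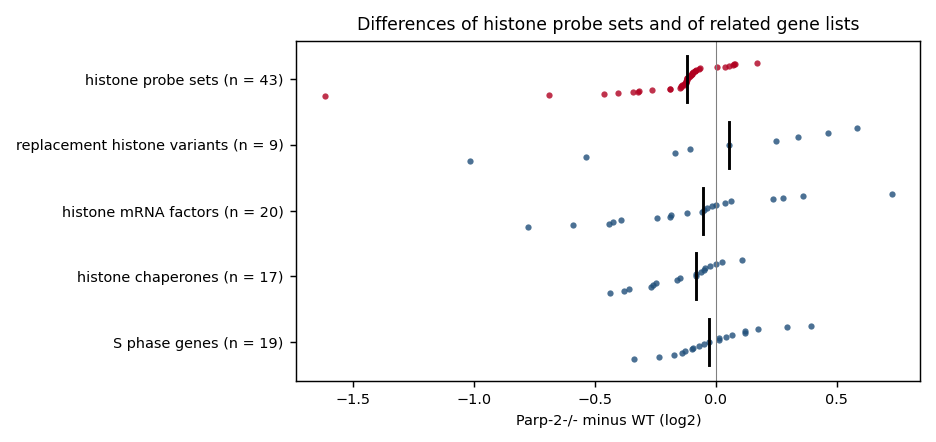
Difference between genotypes (log2, horizontal axis) of the 43 histone probe sets and of the genes in 4 related lists (rows), with 1 point per probe set and a black bar at the median. The medians are -0.12 for histone probe sets, +0.06 for replacement variants, -0.05 for histone mRNA factors, -0.08 for chaperones and -0.03 for S phase genes.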

How the data were processed

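The deposited values are on the log2 scale and cover 35511 probe sets on 4 arrays; the submitters' processing notes name R 3.0.2, limma and RMA without saying which step each served. Values were used as deposited; quartiles differ between arrays, so array-wide shifts reach every difference. Probe sets were named from the platform annotation (23410 with a symbol, 1621 of them with several), and RefSeq gene IDs tied current to older histone names. The genotype difference was fitted by lmFit and eBayes of limma 3.58.1 (R 4.3.3) over the 23410 probe sets, which leaves 2 residual and 4.77 prior degrees of freedom; calls required an adjusted p under 0.05. The labels do not state separate animals per array; the spread behind each p-value is that of these samples and could be technical. A related gene was represented by its probe set of highest mean that names it alone. Named were, in each histone class, the 2 probe sets with the largest difference each way and the 2 of lowest p, the polyadenylated and testis histone genes, the replacement variants and the 3 genes of lowest p in each other list, plus Slbp, Npat and Casp8ap2; other members were added to show the class. The members and lists were chosen with earlier results of these data known. The fit was tested on simulated data. Alternative settings were a block for the replicate number, each array left out in turn, median centring, quantile normalisation run again, dropping dim probe sets, array weights, other moderation, unannotated probe sets included, single-symbol probe sets and, added after the data were seen, older names.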

Additional observations from a re-analysis of the deposited data

How the results depend on the processing

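The histone median (-0.12) was below 0 in 12 of 13 alternatives, from -0.27 to -0.03, and was +0.03 without Parp-2-/- replicate 2. Of the 13, array weights, the replicate block, other moderation and unannotated probe sets left every difference as it was. Those settings could not move the median. Calls over all probe sets (0) were 0 to 62 with 1 array left out, 8 under trended, robust moderation, and 486 without adjustment at p under 0.05. The replicate numbers pair only 2 arrays per genotype and no label says what they mark. With the number as a replicate block, which leaves 1 residual degree of freedom, 274 probe sets passed (0.214% higher, 0.957% lower), 1 of them a member, H2bc4 (limma adjusted p = 0.0100). Prior degrees of freedom were infinite in that fit, so every probe set was given the same spread (SD 0.41). The spread of H2bc4 itself thus did not enter its p-value. Fits without a WT array shared a single spread in the same way. Members without overlap were 0 higher and 2 lower with all arrays as deposited. They were 1 to 16 higher and 5 to 33 lower with 1 array left out, where a lone array overlaps less easily. After repeated quantile normalisation they were 3 higher and 4 lower, and with older names 1 was higher. Shares without overlap over all annotated probe sets were taken only with all arrays as deposited. The counts with 1 array left out and after repeated quantile normalisation thus have no background. They cannot be read as specific to histone probe sets. Class medians with 1 array left out ran from -0.33 to +0.0585 for H1, -0.46 to +0.0532 for H2A and -0.22 to +0.0491 for H4, and -0.14 to +0.26 for replacement variants; H3 was at +0.0693 with single-symbol probe sets only (3 of them). For 41 single probe sets, 36 of 449 alternative differences changed sign, none of them past the test in either setting, and the cause was not tested. The 449 include the settings that could not move a difference, and 22 of the 41 probe sets changed sign in at least 1 setting. With centring, H2az2 was at -0.0167, H2ac1 at -0.0362, H2bc18 at -0.0670, H3c15 at -0.0037 and H4c14 at -0.0204. After repeated quantile normalisation Casp8ap2 was at +0.0263, Slbp at +0.0939 and Npat at +0.0606. The others changed sign with 1 array left out. Their ranges were -0.84 to +0.17 for Mcm3, -0.0065 to +0.50 for Macroh2a2, -0.14 to +0.26 for H2az2, -1.94 to +0.39 for Cpsf2, -0.0117 to +0.17 for H4c8, -0.0751 to +0.23 for H3c4, -0.37 to +0.0824 for H1f2, -1.39 to +0.01 for H2ac4, -0.15 to +0.22 for H2ac1, -0.19 to +1.36 for H3f3a, -0.35 to +0.0492 for H2ac15, -1.11 to +0.47 for H4c3, -0.31 to +0.0180 for probe set 10408246, -0.29 to +0.0870 for H2bc1, -0.92 to +0.16 for Chaf1b, -0.24 to +0.58 for H2bc21, -0.29 to +0.30 for H2bc18, -1.13 to +1.27 for H3c15, -0.11 to +0.22 for H4c14, -0.44 to +0.20 for Casp8ap2, -0.16 to +0.16 for Slbp and -0.94 to +0.91 for Npat. The 2 arrays per genotype limit the precision of every value.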

Other observations

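A further 12 probe sets qualify as replication-dependent histones only through an older gene name that RefSeq lists, and they were examined after the data were seen. Of these, 7 list 14 or 15 genes, nearly all H2B, and also 1 gene whose current symbol is H4bc24 and whose older name is that of an H2B gene. All 7 were lower in Parp-2-/-, by -0.20 to -0.18, none of their groups failed to overlap, and Parp-2-/- replicate 2 was the lowest array in each. Probe set 10403980 read 13.17 and 13.31 in WT and 13.23 and 12.88 in Parp-2-/-. WT replicate 2 exceeded WT replicate 1 in all 7, whereas in all 15 shared H3 and H4 probe sets it was the lower of the WT arrays; this contrast between classes was noticed in the values and not tested.

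The Hist3 genes H2aw and H2bu2 read 9.66 and 10.54 against 9.46 and 10.01, and 8.54 and 8.40 against 8.57 and 7.38, with differences of -0.36 and -0.49. Without Parp-2-/- replicate 2 their differences were -0.64 and +0.10. H2bu1-ps, a related H2B pseudogene, differed by -0.48, or +0.05 without Parp-2-/- replicate 2. H4f16, the Hist4 gene, read 9.47 and 9.45 in WT and 10.01 and 8.95 in Parp-2-/-, a difference of +0.02. H1f6, the testis linker histone, read 4.77 and 5.37 in WT and 6.06 and 5.44 in Parp-2-/-, without overlap, at +0.67 ± 0.42 (SE; limma adjusted p = 0.9999), and its WT mean of 5.07 lay below the reference for dim signal.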
